A study of Homo sapiens with 20 samples.

Results

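Induction of the EHMT1-K450R mutant was followed by RNA-seq in one stable LNCaP line, represented by 4 of the 20 samples of the series. LNCaP is a human prostate adenocarcinoma line with luminal features that responds to androgen. The line carried a lentiviral, tetracycline-inducible EHMT1 reading frame with a V5 tag, in which lysine 450 was changed to arginine, and was compared without doxycycline (Veh, 2 samples) and after 0.25 µg/mL doxycycline for 2 days (Dox, 2 samples). These samples were chosen by their labels alone. Lines built in the same way with WT, K451R or K450RK451R EHMT1 (12 samples, Veh and Dox) served for comparison. All of them kept endogenous EHMT1, had been selected with puromycin, and received doxycycline only in the Dox arm, so that the drug and the induced protein cannot be told apart within a line.

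EHMT1 (GLP) and its partner EHMT2 (G9a) form a complex that places mono- and dimethyl marks on lysine 9 of histone H3, a modification mostly linked to gene silencing. EHMT1 is itself methylated on lysines, and the mutants of the series ask what lysine 450 and its neighbour contribute. Arginine keeps the positive charge of lysine but is not a substrate of lysine methyltransferases. The reference codons for both residues lie side by side in exon 8 of EHMT1 (transcript ENST00000460843, GRCh37 chr9:140648695-140648742, plus strand, coding sequence). The stretch is shown because it holds the residue that distinguishes this line. It covers codons 441 to 456, and the capitals mark codon 450 (AAG) and the codon after it (AAG), both lysine.

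EHMT1, codons 441 to 456: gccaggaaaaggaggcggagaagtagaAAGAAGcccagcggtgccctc

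The 2 columns of a condition differed by no more than counting noise. In a chi-square test of their counts, the statistic per degree of freedom was 0.995 in K450R Veh (12254 genes) and 1.02 in K450R Dox (12588 genes), and the other 6 conditions lay within the same range. The columns were therefore summed and counted as 1 sample a side, with 8436791 counts for Veh and 9587117 for Dox. At this depth 3 counts, taken as the floor of detection, equal 0.356 and 0.313 CPM (counts scaled to library size by TMM). A fold change between Dox and Veh in K450R thus has no replicate check and no p-value. It is given with an exact 95% counting interval, which accounts for the counting of reads and, without molecular identifiers, for nothing else. By construction, counting alone makes such an interval leave out no change for at most 2.5% of unchanged genes on each side. A gene was called higher or lower when it was at least 25% higher or 20% lower, equal factors up and down, and its interval excluded no change. p-values are given only for the difference between the Dox effect in K450R and that of the other 3 lines. They came from edgeR's quasi-likelihood test, in which the spread of those 3 lines, pooled in part across the genes tested, stood for the error. With 2 residual degrees of freedom, small p-values rest on that pooling. By rank alone, 1 line against 3 gives no p under 0.25.

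Cell identity was that of luminal prostate cells. All 12 luminal markers passed the filter on low counts, and their summed level was 13030 CPM in Veh and 13160 CPM in Dox. KLK3, which encodes prostate-specific antigen, stood at 8090 and 7931 CPM. The 5 basal markers summed to 9.35 and 6.06 CPM, of which the integrin ITGB4 made 8.61 and 5.32 CPM (called lower, log2 fold change -0.69), and KRT5 and TP63 had 0 counts in all 8 stable-line libraries. The 5 neuroendocrine cell markers summed to 0.738 and 0.319 CPM. The 6 immune and endothelial markers in the table summed to 5.41 and 7.55 CPM, of which VWF made 4.80 and 7.23 CPM (called higher, 0.59), and PTPRC, CD3E and CDH5 had 0 counts in K450R. The 7 stromal markers summed to 43.0 and 36.3 CPM, of which COL1A1 made 37.8 and 32.7 CPM.

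EHMT1 was higher with Dox in K450R by a factor like that in the other lines. EHMT1 had 337 and 346 counts in the Veh columns and 3917 and 3977 counts in the Dox columns. Its level went from 84.0 to 840 CPM, a log2 fold change of 3.32 (counting interval 3.21 to 3.44). The induced frame and the endogenous gene are counted together on this gene. The log2 fold change was 3.39 in WT, 3.34 in K451R and 2.90 in K450RK451R, and that of K450R differed from their mean by 0.12 ± 0.17 (SE; edgeR adjusted p = 0.998).

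Its partner EHMT2 had 87.3 CPM in Veh and 87.6 CPM in Dox. Of the 30 genes listed for the EHMT complex and H3K9 methylation, all of which passed the filter, 3 were higher and 2 lower, against 8.14% higher and 6.84% lower among all 13765 genes. The higher genes were EHMT1 itself and the zinc-finger proteins WIZ and ZNF644, which bring the EHMT1/EHMT2 complex to chromatin. WIZ had 190 and 199 counts in Veh and 345 and 289 in Dox, a log2 fold change of 0.50 (0.31 to 0.68). In the other lines its log2 fold change lay between -0.18 and 0.15, and the difference of 0.50 ± 0.18 had an unadjusted p = 0.0114 and an adjusted p = 0.998 by edgeR. ZNF644 had a log2 fold change of 0.34, the H3K9 demethylase KDM4C of -0.36 and the heterochromatin protein CBX1 of -0.33.

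Changes elsewhere were mostly small. In K450R, 1121 genes were higher with Dox and 941 lower, which together made 15.0% of those tested. The same call was made for 12.7% of genes in WT, 15.6% in K451R and 20.2% in K450RK451R, in libraries of unequal depth. At 2-fold without regard to the interval, 299 genes were higher (2.17%) and 275 lower (2.00%), 4.17% of all, and 11 of these 574 genes had a mean of at least 100 counts. Among the 8687 genes with such a mean, 7.13% were called higher and 6.10% lower by the first rule. The scatter of fold change against count for this line shows the spread narrowing with depth around EHMT1, NEAT1 and a few others.

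**Figure D1:**
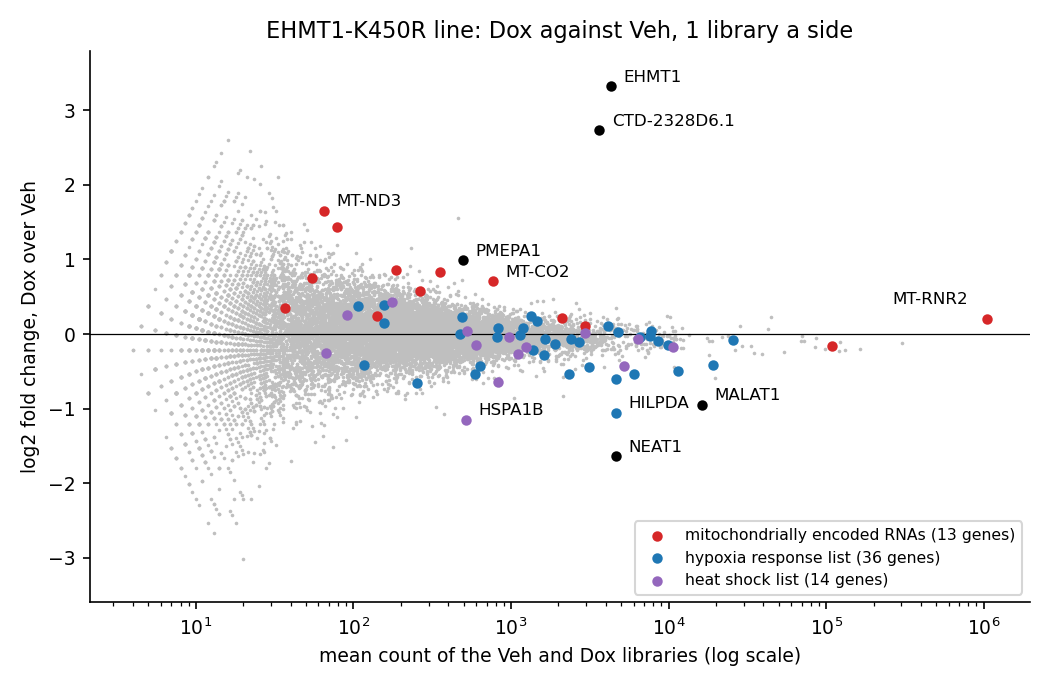
Log2 fold change of Dox over Veh in K450R (vertical axis) against the mean count of the 2 libraries (horizontal log axis), 1 grey point for each gene with more than 3 counts in both, coloured points for 3 gene lists and black points for other named genes. EHMT1 sits at 3.32 and the pseudogene CTD-2328D6.1 at 2.74, NEAT1 lies at -1.64 and HILPDA at -1.06, and 12 of 13 mitochondrially encoded RNAs lie above 0.

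The Dox effect in K450R stood apart from the other lines for RNAs encoded by mitochondrial DNA. This genome encodes subunits of the respiratory chain and the ATP synthase together with the rRNAs and tRNAs of the organelle, and is transcribed as long precursors by a dedicated polymerase. Of the 15 mRNAs and rRNAs listed, 13 passed the filter. In K450R 7 of them were higher with Dox (53.8%, against 8.14% of all genes) and 0 lower (against 6.84%). Their median log2 fold change was 0.57, against 0.01 over all genes. The medians in the other lines were -0.58 in WT, -0.80 in K451R and -0.72 in K450RK451R. The difference test gave an adjusted p under 0.05 for 7 of 14105 genes (0.0496%), all with a higher Dox effect in K450R, and 6 of the 7 were mitochondrial. At an unadjusted p under 0.05 it gave 3.81% of genes, 2.05% with a higher and 1.77% with a lower effect in K450R, and 12 of the 13 mitochondrial RNAs, all higher.

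MT-CO2, a subunit of cytochrome c oxidase (GRCh37 chrM:7586-8269), had 253 and 277 counts in K450R Veh and 490 and 509 in K450R Dox. Its level went from 65.2 to 106 CPM in K450R, a log2 fold change of 0.71 (0.55 to 0.86). The same RNA stood at 86.3 CPM in WT Veh and 46.5 CPM in WT Dox, at 124 and 71.1 CPM in the K451R line, and at 96.0 and 53.5 CPM in the K450RK451R line. K450R was thus the lowest of the 4 Veh libraries and the highest of the 4 Dox libraries. The difference was 1.55 ± 0.15 (SE; edgeR adjusted p = 5.87e-06).

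MT-ND4 and MT-CYB, subunits of complex I and complex III, had the same pattern of order. MT-ND4 had 106 and 126 counts in Veh and 240 and 237 in Dox, and went from 28.5 to 50.7 CPM. Its difference from the other lines was 1.61 ± 0.21 (adjusted p = 0.000576). MT-CYB had 59 and 61 counts in Veh and 112 and 139 in Dox, and went from 14.8 to 26.7 CPM, with a difference of 1.64 ± 0.27 (adjusted p = 0.0119). In the other 3 lines both RNAs were lower with Dox, MT-ND4 by log2 fold changes from -0.89 to -0.58 and MT-CYB from -0.99 to -0.63.

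For the more abundant RNAs the difference came from small values in K450R and negative ones elsewhere. MT-CO1 went from 322 to 349 CPM (log2 fold change 0.11, 0.04 to 0.19) and MT-CO3 from 221 to 258 CPM (0.22, 0.13 to 0.31), both under the 25% threshold. Their differences from the other lines were 0.91 ± 0.14 and 0.85 ± 0.14 (adjusted p = 0.00807 and 0.0119). MT-RNR2, the large mitochondrial rRNA, had 446997 and 456568 counts in Veh and 592217 and 605102 in Dox, and went from 10.7% to 12.5% of all counts in K450R. Its share in Veh and Dox was 11.6% and 8.77% for WT, 13.1% and 9.51% for K451R, and 10.9% and 7.26% for K450RK451R, and the difference was 0.78 ± 0.13 (adjusted p = 0.0151). MT-RNR1, the small rRNA, was the exception in direction. It had a log2 fold change of -0.17 in K450R, and its difference of 0.56 ± 0.14 had an unadjusted p = 0.000698 and an adjusted p = 0.998.

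The less abundant MT-ATP6, a subunit of the ATP synthase, had 22 and 16 counts in Veh and 64 and 55 in Dox (log2 fold change 1.44, 0.90 to 2.00). Its difference of 2.29 ± 0.45 had an adjusted p = 0.0818. MT-ND5 had a log2 fold change of 0.57 and MT-ND3 of 1.66 in K450R, and in WT they stood at 15.9 and 17.3 CPM and at 4.38 and 4.72 CPM. MT-ND3 was also higher with Dox in K451R, at 7.03 and 10.1 CPM (0.52). Summed over 13 mRNAs, mitochondrial reads made 0.0683% of K450R Veh (95% Wilson interval 0.0665 to 0.0700) and 0.0865% of K450R Dox (0.0847 to 0.0884). In WT the shares were 0.0740% and 0.0458%, in the K451R line 0.102% and 0.0624%, and in the K450RK451R line 0.0746% and 0.0537%. Copies of mitochondrial sequence in the nuclear genome could take or give reads, so the values of single mitochondrial genes are uncertain.

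**Figure D2:**
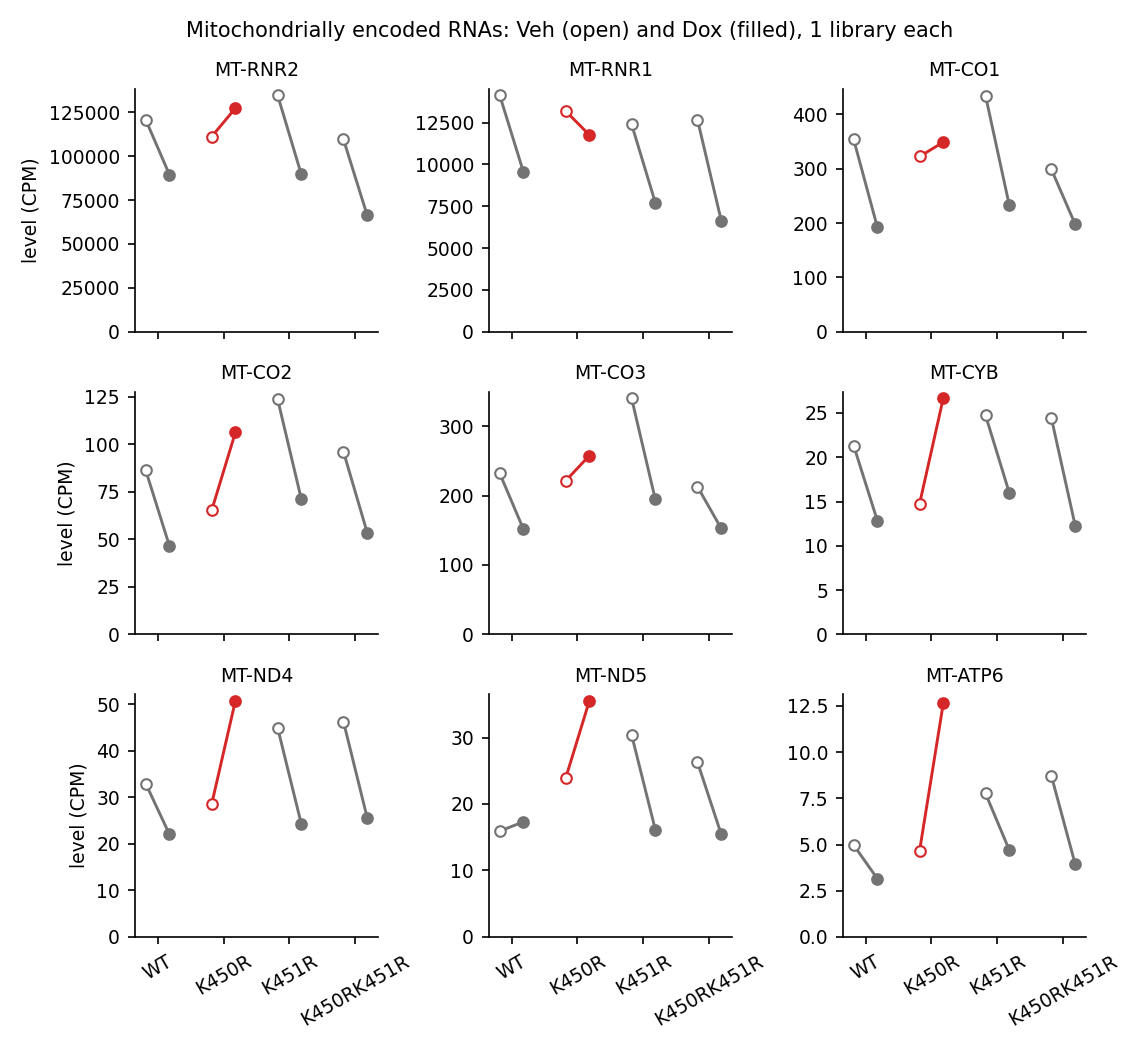
Level in CPM (vertical axes, from 0) of 9 mitochondrially encoded RNAs in the 4 lines (horizontal axes), with Veh as open and Dox as filled circles, 1 summed library each, joined by a line that is red for K450R. The red line rises in 8 panels and falls for MT-RNR1, while the grey lines fall in all panels except for MT-ND5 in WT.

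Nuclear genes of the same complexes gave no such values. None of the 35 listed nuclear subunits of the respiratory complexes was called in either direction, against 15.0% of all genes. Their median log2 fold change was 0.00. Their log2 fold changes lay between -0.23 (NDUFS3) and 0.56 (NDUFV2, both subunits of complex I). The 17 genes of the mitochondrial protease and chaperone response also gave 0 calls (against the same 15.0%), with a median of 0.03. PPARGC1B, a coactivator of genes for mitochondrial function, had 3 and 4 counts in Veh and 17 and 18 in Dox (log2 fold change 2.11, 0.92 to 3.53), and its log2 fold change was 1.29 in WT, 1.22 in K451R and 0.18 in K450RK451R.

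The seventh gene past the adjusted threshold was CTD-2328D6.1 (GRCh37 chrX:108297361-108297792, minus strand, pseudogene), a short stretch that resembles the 28S rRNA. It had 410 and 425 counts in Veh and 3168 and 3269 in Dox, going from 103 to 685 CPM, while the levels in Veh and Dox were 216 and 404 CPM in WT, 261 and 311 CPM in the K451R line, and 191 and 203 CPM in the K450RK451R line. K450R was again the lowest Veh and the highest Dox library, with a difference of 2.32 ± 0.21 (adjusted p = 2.51e-06). A second pseudogene of this kind, AC010970.2, had 1808 counts in K450R Veh and 2410 in K450R Dox (log2 fold change 0.21, 0.12 to 0.29), under the 25% threshold, and -0.12 in WT, -0.07 in K451R and -0.71 in K450RK451R. Both together made 0.0313% and 0.0923% of the K450R counts, a difference that came mostly from CTD-2328D6.1, and between 0.0432% and 0.0637% in the other 6 libraries. MIR3687, a small RNA gene within the ribosomal DNA, went from 25.7 to 75.7 CPM in K450R. Its levels in Veh and Dox were 49.9 and 119 CPM for WT, 58.8 and 56.3 CPM for K451R, and 20.5 and 46.1 CPM for K450RK451R, so that it did not follow the order of the mitochondrial RNAs. The part of rRNA carry-over in the mitochondrial values was not tested. Without the mitochondrial genes and these pseudogenes, edgeR gave 0 of 14078 genes at an adjusted p under 0.05 and 530 at an unadjusted p under 0.05 (271 higher, 259 lower in K450R). DESeq2 and limma-voom were run only with those genes included, and gave 6 and 7 calls, all among the 7.

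**Figure D3:**
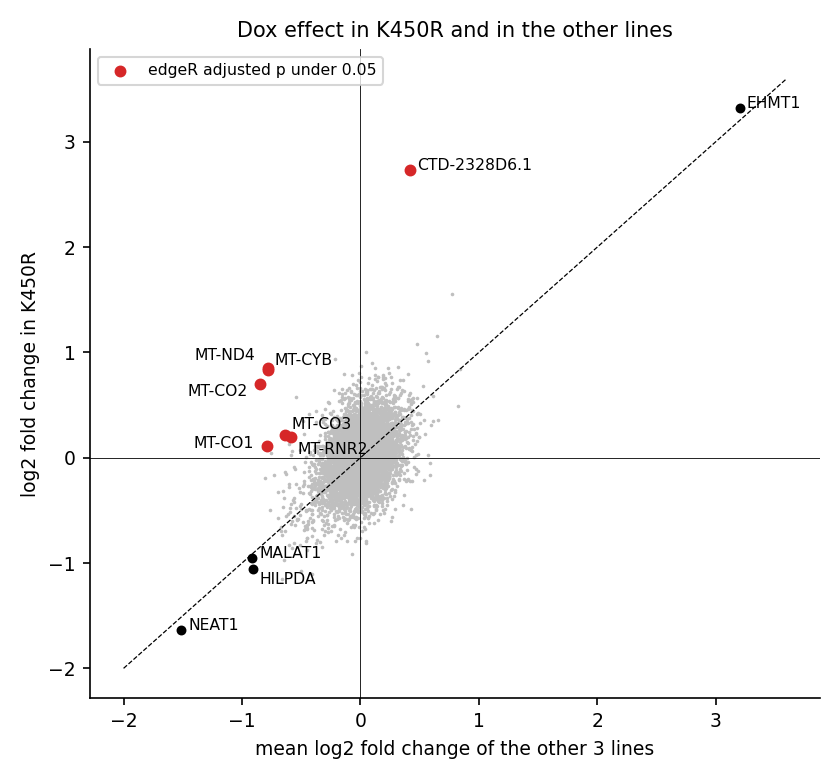
Log2 fold change of Dox over Veh in K450R (vertical axis) against the mean of the other 3 lines (horizontal axis), 1 grey point for each gene with a mean of at least 100 counts in K450R, red points for an edgeR adjusted p under 0.05 and the dashed line for equality. The 6 mitochondrial RNAs lie to the upper left with CTD-2328D6.1 above them, while EHMT1, NEAT1, MALAT1 and HILPDA lie near the dashed line.

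Among nuclear genes, the hypoxia response was the list with the largest number of lower members. Under low oxygen the HIF factors bind an ACGTG or GCGTG core near genes for glucose use, angiogenesis and oxygen sensing. Of 36 hypoxia genes that passed the filter, 11 were lower with Dox (30.6%, against 6.84% of all genes) and 1 was higher (against 8.14%). The list's median was -0.07, against 0.01 over all genes, and 24 of the 36 members lay below 0. The medians were -0.01 in WT, -0.23 in K451R and -0.26 in K450RK451R.

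HILPDA, a lipid droplet protein, had 2878 and 3060 counts in Veh and 1662 and 1636 in Dox. It went from 730 to 351 CPM (log2 fold change -1.06, -1.12 to -0.996). PFKFB3, which makes the activator of phosphofructokinase, went from 643 to 425 CPM, with 2617 and 2613 counts in Veh and 1981 and 2017 in Dox (log2 fold change -0.60). Both genes were lower with Dox in K451R and K450RK451R as well, whereas in WT the log2 fold changes were -0.09 for HILPDA and 0.03 for PFKFB3. JMJD6 had a log2 fold change of -0.53 and the adaptor protein PPFIA4 of -0.66. PPFIA4 was the only one of these with an opposite sign in K450RK451R (0.39).

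Other lower members, chosen after their values were seen, were VEGFA, the angiogenic growth factor (1554 to 1101 CPM, -0.50), the HIF target ANKRD37 (321 to 222 CPM, -0.53), the MTORC1 inhibitor DDIT4 (2537 to 1904 CPM, -0.41), BHLHE40, EFNA1, WSB1 and CA9. The higher member was the nuclear receptor RORA (0.39, 0.06 to 0.73). In glycolysis and glucose handling, 2 of 27 genes were lower (7.41%, near the 6.84% of all) and 0 higher, with 20 of 27 below 0 and a median of -0.13. The lower genes were the glucose transporter SLC2A1 (344 to 248 CPM, -0.47) and the enolase ENO2 (372 to 280 CPM, -0.41). HK2, the hexokinase, had a log2 fold change of -0.31, and PDK3, an inhibitor of pyruvate dehydrogenase, of 0.32.

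For no hypoxia or glycolysis gene did the difference from the other 3 lines have an adjusted p under 0.05. That of HILPDA was -0.15 ± 0.29 and that of PFKFB3 -0.02 ± 0.23 (edgeR adjusted p = 0.998 for both). The Dox effects of the other lines on this list spread widely, with WT near 0 and K451R and K450RK451R below K450R for HILPDA and PFKFB3.

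**Figure D4:**
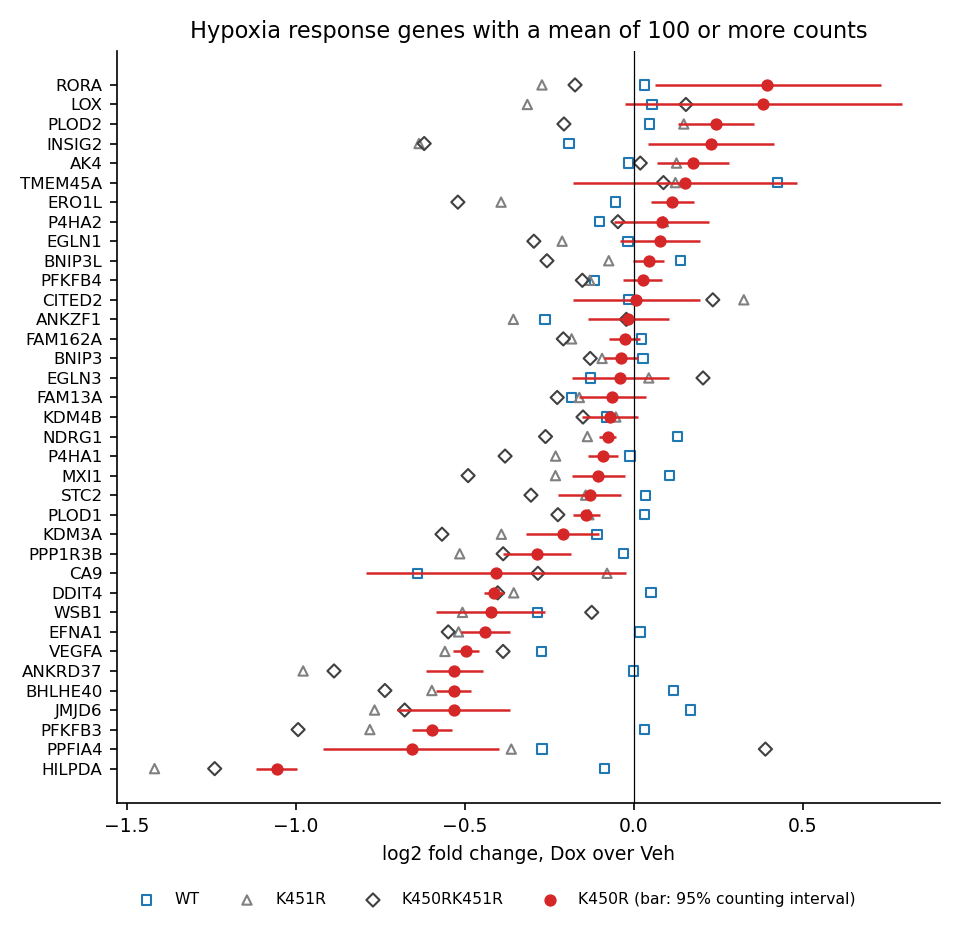
Log2 fold change of Dox over Veh (horizontal axis) for the hypoxia genes with a mean of at least 100 counts in K450R (vertical axis, ordered), as red points with 95% counting intervals for K450R and open symbols for the other lines. HILPDA lies lowest at -1.06 and RORA highest at 0.39, and the blue WT squares lie nearer 0 than the red points for most of the lower genes.

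The HIF core is shown in the promoters of 3 lower members, chosen after the matches were seen, from RefSeq (GRCh38.p14, 250 bases before the start, plus strand for each). ACGTG or GCGTG, on either strand, is in capitals, with overlapping matches joined. Among 57 hypoxia and glycolysis genes with an entry, 40 held the core in this window (70.2%), against 11763 of 27305 promoters of the same length (43.1%). BHLHE40 (chr3:4979187-4979436) held 4 matches, PFKFB3 (chr10:6144671-6144920) 1 and PPFIA4 (chr1:203026241-203026490) 3. Of the 13 hypoxia and glycolysis genes called lower, 10 had an entry and 9 of these held 1 to 4 matches, while SLC2A1 held 0. A match is a description of the letters and not evidence of binding.

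BHLHE40: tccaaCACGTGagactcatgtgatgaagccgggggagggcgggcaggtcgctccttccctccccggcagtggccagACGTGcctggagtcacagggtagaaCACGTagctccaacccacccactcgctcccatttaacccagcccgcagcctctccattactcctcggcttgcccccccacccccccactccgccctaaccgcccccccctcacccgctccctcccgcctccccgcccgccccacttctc
PFKFB3: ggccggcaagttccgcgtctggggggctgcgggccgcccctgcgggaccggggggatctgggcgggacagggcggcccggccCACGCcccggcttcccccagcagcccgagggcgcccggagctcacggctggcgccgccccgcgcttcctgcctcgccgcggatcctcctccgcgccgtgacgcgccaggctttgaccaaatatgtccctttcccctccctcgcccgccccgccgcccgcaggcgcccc
PPFIA4: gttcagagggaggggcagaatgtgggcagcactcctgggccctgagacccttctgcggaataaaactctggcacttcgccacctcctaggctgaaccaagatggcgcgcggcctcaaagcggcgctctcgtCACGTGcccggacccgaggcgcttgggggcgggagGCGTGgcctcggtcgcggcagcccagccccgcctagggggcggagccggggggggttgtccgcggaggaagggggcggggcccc

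In the heat shock list, 4 of 15 genes were lower (26.7%, against 6.84% of all) and 1 higher (6.67%, against 8.14%), with a median of -0.17. HSPA1B, an inducible HSP70 chaperone, had 311 and 374 counts in Veh and 194 and 163 in Dox, and went from 84.2 to 38.0 CPM (log2 fold change -1.15, -1.34 to -0.96). Its log2 fold change was -1.15 in K451R and -1.14 in K450RK451R, and 0.09 in WT. HSPA1B has a near-identical copy, HSPA1A, and the division of reads between them is uncertain. DNAJB1, a co-chaperone of HSP70, went from 117 to 75.1 CPM (-0.64), HSPB1, the small chaperone HSP27, from 688 to 513 CPM (-0.43), and HSPH1 was higher (0.43).

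HSPA6, a strictly stress-induced HSP70, had 25 and 33 counts in Veh and 1 and 0 in Dox (log2 fold change -6.07, -11.4 to -3.53). Its level in Veh and Dox was 15.5 and 16.1 CPM for WT, 7.52 and 1.14 CPM for K451R, and 2.83 and 0.541 CPM for K450RK451R. It was first among the genes with a lower Dox effect in K450R, at -4.79 ± 1.35, with an unadjusted p = 0.00183 and an adjusted p = 0.998. The adjusted p ranged from 9.1e-05 to 1 over the alternatives, so that the call depended on the setting.

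In the immediate early and MAPK feedback list, 6 of 22 genes were lower (27.3%, against 6.84% of all), 3 were higher (13.6%, against 8.14%), and the median was -0.25. The transcription factor FOS had 483 and 489 counts in Veh and 326 and 374 in Dox (log2 fold change -0.68). NR4A1 went from 93.6 to 59.6 CPM (-0.65) and the phosphatase gene DUSP5 from 17.2 to 10.6 CPM (-0.69). SPRED2, an inhibitor of RAS signalling, was higher (0.54), beside -0.27 in WT, 0.04 in K451R and 0.00 in K450RK451R. MYC was also higher and went from 114 to 143 CPM (0.33, 0.21 to 0.45). In the other lines MYC had log2 fold changes of 0.34 (WT), 0.62 (K451R) and 0.56 (K450RK451R). The list medians were -0.09 in WT, -0.43 in K451R and -0.45 in K450RK451R.

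The nuclear RNAs NEAT1 and MALAT1 were lower with Dox in K450R. NEAT1, the scaffold of paraspeckles, had 3344 and 3431 counts in Veh and 1239 and 1277 in Dox, and went from 833 to 268 CPM (log2 fold change -1.64, -1.71 to -1.57). MALAT1, a nuclear speckle RNA, went from 2492 to 1291 CPM (-0.95). The log2 fold change of NEAT1 was -2.15 in WT, -1.92 in K451R and -0.44 in K450RK451R, and K450R differed from their mean by -0.12 ± 0.35 (edgeR adjusted p = 0.998). That of MALAT1 was -1.14 in WT, -1.14 in K451R and -0.45 in K450RK451R. Of 11 structured or nuclear RNAs that passed the filter, 3 were lower (27.3%, against 6.84% of all genes) and 0 higher. The third was KCNQ1OT1 (-0.63, beside -0.15 in WT and -1.13 in K451R), with the opposite sign in K450RK451R (0.42). KCNQ1OT1 lies antisense to KCNQ1 and cannot be told apart from it if strand was not used in counting.

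The splicing factor list had the largest share of lower genes among the lists of 10 or more tested genes, 9 of 25 (36.0%, against 6.84% of all), with 0 higher. The list holds the CLK kinases, the L-type cyclins and the SR proteins, many of which make transcripts that are held in the nucleus. It also holds other factors, of which PNISR, LUC7L and LUC7L3 were among the lower genes. CLK1 went from 153 to 109 CPM (log2 fold change -0.48), CCNL1 from 70.2 to 50.6 CPM (-0.47), CCNL2 from 69.1 to 48.1 CPM (-0.52) and LUC7L had a log2 fold change of -0.59. The median of -0.22 in K450R lay beside -0.26 in WT, -0.27 in K451R and -0.14 in K450RK451R.

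In the list of E2F targets and DNA replication, 5 of 49 genes were higher (10.2%, against 8.14% of all) and 3 lower (6.12%, against 6.84%), with a median of 0.06. The G2/M list had 3 of 48 higher (6.25%) and 1 lower (2.08%). FEN1, a flap endonuclease, had a log2 fold change of 0.46 and EZH2, the catalytic subunit of PRC2, of -0.37. AURKB, the kinase of the chromosomal passenger complex, had 146 and 164 counts in Veh and 120 and 141 in Dox (-0.46). In the MYC target and ribosome biogenesis list, 6 of 61 were higher (9.84%) and 1 lower (1.64%), and the median was 0.00. SRM, the spermidine synthase, had 95 and 116 counts in Veh and 197 and 203 in Dox (0.71, 0.47 to 0.96), MRTO4 went from 10.1 to 15.6 CPM (0.63), and NME1 had a log2 fold change of -0.34.

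The androgen response had 4 of 38 genes higher (10.5%, near the 8.14% of all genes) and 0 lower, with a median of 0.06. PMEPA1, a feedback inhibitor of TGF-beta and androgen signalling, had 151 and 148 counts in Veh and 334 and 353 in Dox, and went from 36.8 to 73.1 CPM (log2 fold change 0.99, 0.79 to 1.19). It was higher with Dox in K451R (0.92) and K450RK451R (0.58) and had a log2 fold change of 0.14 in WT. SLC45A3 went from 270 to 341 CPM (0.34). Its log2 fold change was 0.00 in WT, 0.33 in K451R and 0.24 in K450RK451R. KLK3, a main androgen target, had a log2 fold change of -0.03. The pioneer factor FOXA1 was higher in K450R, from 174 to 241 CPM (0.47, 0.37 to 0.57). Its log2 fold change was also positive in WT (0.20), K451R (0.35) and K450RK451R (0.41). In the WNT feedback list, 4 of 17 genes were higher (23.5%, against 8.14% of all) and 1 lower (5.88%), with a median of 0.15. RNF43, a ligase that removes WNT receptors, had 78 and 85 counts in Veh and 127 and 130 in Dox (0.45), and MYC is also a member.

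Among other regulators of chromatin, the shares of called genes rested on 1 or 2 members. In the PRC2 and DNA methylation list, 2 of 18 were higher (11.1%, against 8.14% of all), SUZ12 (19.7 to 30.4 CPM, log2 fold change 0.63) and the 5-methylcytosine oxidase TET1 (9.35 to 14.6 CPM, 0.64), and EZH2 was lower. In the REST and LSD1 list, 2 of 14 were higher (14.3%) and 1 lower (7.14%, against 6.84% of all). ZMYM2 had a log2 fold change of 0.32 and ZMYM3 of -0.44. Of the listed neuroendocrine genes 5 of 25 passed the filter, among which ENO2 was lower, the Notch ligand DLL3 higher (21 and 21 counts in Veh, 48 and 51 in Dox, 1.03) and MAPT had a log2 fold change of -0.02. For SUZ12, TET1 and ZMYM2 the unadjusted p of the difference from the other lines lay between 0.0210 and 0.0495, and the adjusted p was 0.998.

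**Figure D5:**
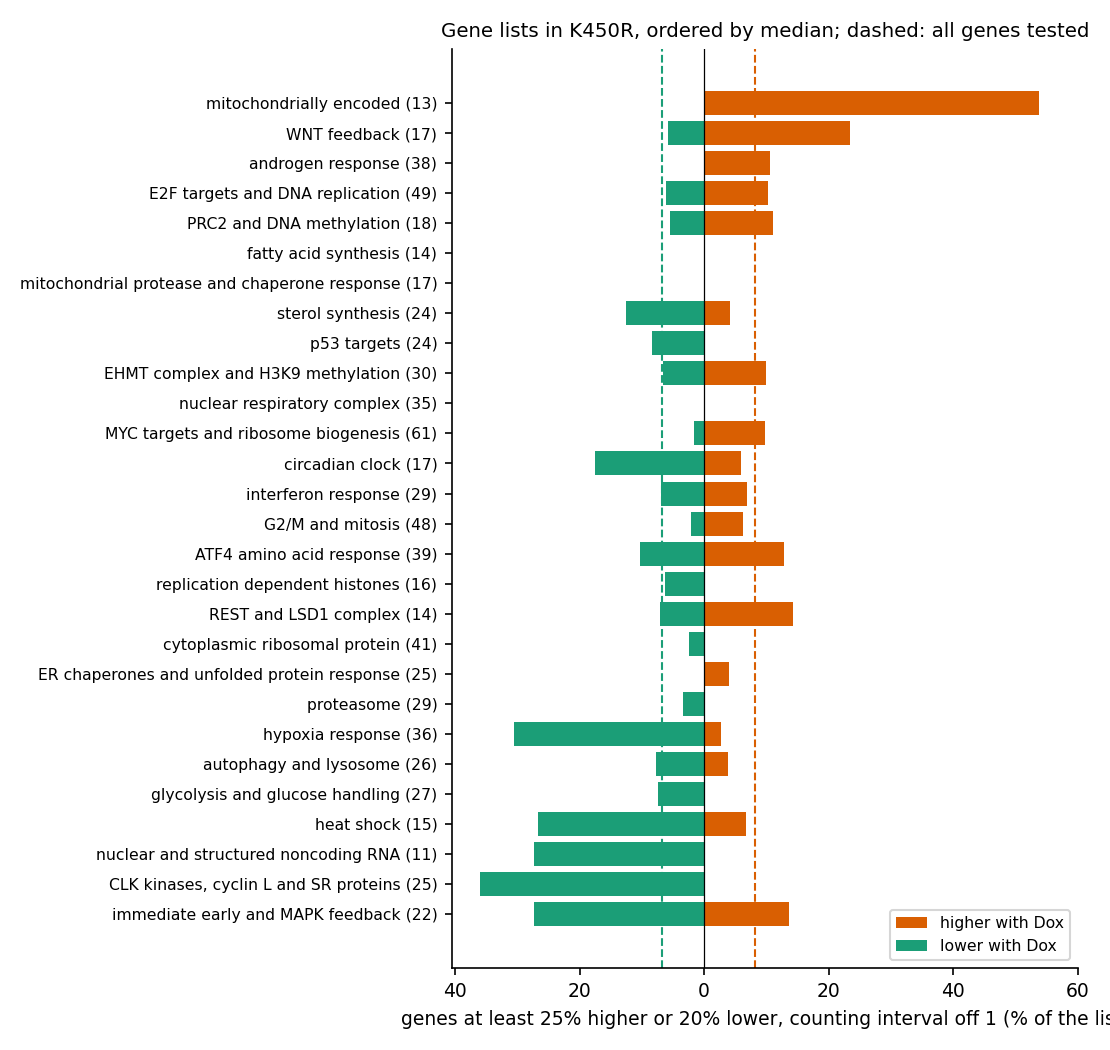
Share of each gene list (vertical axis, number of genes that passed the filter in brackets, ordered by median; lists of 10 or more such genes, without cell type markers) called higher (orange, to the right) or lower (green, to the left) in K450R with Dox, in percent (horizontal axis), and dashed lines for the shares of all genes tested, 8.14% and 6.84%. The mitochondrially encoded list extends farthest to the right at 53.8%, and the splicing factor and hypoxia lists farthest to the left at 36.0% and 30.6%.

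The genes with the largest fold changes outside these lists were mostly of low count. After EHMT1, the 12 higher genes with the bound farthest from no change were led by CTD-2328D6.1 and MIR3687, and 9 of the rest had 55 counts or fewer in each library. MT-ND3 is described above. HERC5, an interferon-induced ligase, had 4 and 5 counts in Veh and 23 and 19 in Dox (log2 fold change 2.01, 0.95 to 3.24). Its log2 fold change lay between -0.30 and -0.03 in the other 3 lines, and the difference was 2.21 ± 0.67 (unadjusted p = 0.00335, adjusted p = 0.998). FRAT1, an activator of WNT signalling, had 5 and 3 counts in Veh and 28 and 16 in Dox (2.25, 1.15 to 3.55). CABLES1 changed by 1.89 and PAQR8 by 2.21 on the log2 scale, and the noncoding RNAs RP11-815I9.4, CTC-203F4.2, AC003665.1 and GS1-179L18.1 of 2.08 to 2.60. GS1-179L18.1 rested on 0 and 8 counts in Veh and 27 and 12 in Dox.

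Of the 12 lower genes, NEAT1 and HILPDA had by far the most counts. TRIM52 had 50 and 56 counts in Veh and 22 and 21 in Dox (log2 fold change -1.51), and LAMB3, a laminin subunit, 16 and 15 in Veh and 5 and 3 in Dox (-2.16). The log2 fold change was -2.21 for RSPH1 and -2.03 for LCN12. ENO1-IT1 had the largest change, from 35 to 5 counts (-3.02, -4.73 to -1.66), and it was also lower with Dox in WT and K451R. The others were pseudogenes or a partial gene copy, whose reads may belong to related loci (CTD-2006C1.6, RP1-121G13.3, SRGAP2C, IGBP1P1 and RPL23AP7). Besides HSPA6, the genes with the smallest p for a lower Dox effect in K450R were FLJ27365, HSD17B7, SMARCB1 and ALMS1. SMARCB1, a core subunit of the SWI/SNF complex, had 258 and 279 counts in Veh and 219 and 224 in Dox, with a difference of -0.61 ± 0.19 (unadjusted p = 0.00316, adjusted p = 0.998). HSD17B7, an enzyme of sterol synthesis, had 51 and 52 counts in Veh and 29 and 26 in Dox, with a difference of -1.29 ± 0.39 (unadjusted p = 0.00302, adjusted p = 0.998).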

How the data were processed

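The authors deposited a table of raw counts per Ensembl gene, not normalized. Per the paper, libraries were stranded total RNA, sequenced as single-end reads. The submitters' processing notes name FastQC 0.11.9, STAR 2.7.2 and featureCounts 1.6.4 and the builds hg19 and GRCh37. The annotation release and the strand setting were not given in the sources used here, so genes that overlap or have copies could share reads. The labels do not say whether numbered samples are separate cultures.

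Positions came from GENCODE release 44 on GRCh37 (55538 of 57773 identifiers). The 2 columns of a condition were summed. Totals were 8436791 to 12407739 counts over the 8 stable-line conditions. Folds were TMM-scaled ratios with exact 95% conditional binomial intervals, for 13765 genes that passed edgeR's default filter by condition. Shares of counts have Wilson intervals. Differences were tested with edgeR's quasi-likelihood method on the 8 summed libraries, with terms for line, Dox and Dox in K450R (2 residual degrees of freedom), over 14105 genes with Benjamini-Hochberg adjustment. K450R was assumed to vary like the other lines. R 4.3.3, edgeR 4.0.16, limma 3.58.1 and DESeq2 1.42.0 were used, and the procedures were tested on simulated data.

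The gene lists and the genes in them were chosen with earlier results of these data known. Named genes were EHMT1, the 12 higher and 12 lower genes whose interval bound lay farthest from no change (without genes of 3 counts or fewer), the 5 smallest p in each direction of the difference test, and per list the 4 largest changes with a mean of at least 100 counts. Any other named gene was chosen after its values were seen. Alternatives were other scalings, filters and tools, each line or column left out, and the columns taken as replicates with and without a block. The siRNA samples were not analysed here. Some results on single genes are not reported here.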

Additional observations from a re-analysis of the deposited data

Results flagged for a closer look

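For 7 genes the Dox effect in K450R differed from that of the other 3 lines in edgeR's quasi-likelihood test (adjusted p under 0.05 over 14105 genes). On the log2 scale the difference was 2.32 for CTD-2328D6.1, 1.64 for MT-CYB, 1.61 for MT-ND4, 1.55 for MT-CO2, 0.91 for MT-CO1, 0.85 for MT-CO3 and 0.78 for MT-RNR2. Each was higher in K450R, the single library pair of its line, and the mitochondrial RNAs were lower with Dox in 3 of 3 other lines.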

How the results depend on the processing

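The call of 2-fold change depended on the handling of low counts. In K450R, 299 genes were higher and 275 lower at 2-fold, against 802 and 716 without a filter and 6 and 5 at a mean of at least 100 counts, where the calls of at least 25% higher or 20% lower, 1121 and 941 in all, numbered 619 and 530. With 1 column a side, 416 to 453 genes were 2-fold higher. Of the calls of small changes, 585 of 1121 higher and 516 of 941 lower genes were kept without replicate 1, and 541 and 508 without replicate 2. Lists whose median lay at least 0.1 from that of all genes numbered 9, and 15 without a filter. The difference test called 7 genes higher and 0 lower. It gave 12 and 1 without a filter, 21 and 1 without WT, 7 and 1 without K451R, and 10 and 1 without K450RK451R. Without the mitochondrial genes and rRNA-like pseudogenes, an alternative added after the data were seen, it gave 0 higher. Of the 7 genes, 6 were kept without K451R, without K450RK451R, by DESeq2 and without replicate 2. HSPA6 was below an adjusted p of 0.05 without a filter (0.000256), without K451R (0.000117) and without K450RK451R (9.1e-05), the range over its alternatives being 9.1e-05 to 1. For HSPA6, the cause was not tested. Taking the columns as replicates with a replicate block, which compares the libraries only, gave 528 higher and 493 lower genes for the difference. The replicate numbers did not pair the columns (r = -0.00321 over 6354 genes between deviations in Veh and Dox), and the block moved the counts of 2-fold calls from 249 and 212 to 250 and 215. Under total-count scaling 60.9% of the calls of small changes were higher, against 54.4% under TMM. Genes of few counts limit the fold calls.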

Other observations

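In sterol synthesis, controlled by SREBP2, 3 of 24 genes were lower in K450R with Dox (12.5%, against 6.84% of all genes). The share higher was 4.17% (1 gene, against 8.14% of all). MVK, the mevalonate kinase, had 97 and 97 counts in Veh and 68 and 64 in Dox (log2 fold change -0.77, -1.10 to -0.44), and its difference from the other lines was -0.73 ± 0.27 (edgeR unadjusted p = 0.0118, adjusted p = 0.998). MVD, the next enzyme but one of the pathway, had a log2 fold change of -0.48, HSD17B7 of -1.11 and the sterol carrier STARD4 of 0.39. In fatty acid synthesis 0 of 14 genes were called in either direction, against 15.0% of all genes.

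In the ATF4 amino acid response 5 of 39 genes were higher (12.8%, against 8.14% of all) and 4 lower (10.3%, against 6.84%). The amino acid transporter SLC38A2 went from 37.6 to 60.5 CPM (0.69), and PSPH, PSAT1, SLC7A5 and CEBPB were also higher. NUPR1, DDIT3, ATF3 and DDIT4, which respond to many stresses, were lower, with NUPR1 going from 519 to 382 CPM (-0.44). Among clock genes 3 of 17 were lower (17.6%, against 6.84% of all) and 1 higher (5.88%, against 8.14%). The largest decrease was that of PER1 (117 to 77.9 CPM, -0.59), beside -0.32 in WT, -0.65 in K451R and -0.64 in K450RK451R. BHLHE40, another of the lower genes, and RORA, the higher one, are also members of the hypoxia list. IRF7, a master factor of the interferon response, had a log2 fold change of -0.59. In its list 2 of 29 genes were higher and 2 lower (6.9% each, against 8.14% and 6.84% of all).

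In the remaining lists few genes were called, while 8.14% of all genes were higher and 6.84% lower. Of 25 ER chaperone and unfolded protein response genes 1 was higher (4%). Those lower were 2 of 24 p53 targets (8.33%) and 1 of 41 ribosomal protein genes (2.44%). Also lower were 1 of 16 replication-dependent histone genes (6.25%) and 1 of 29 proteasome genes (3.45%). Autophagy and lysosome genes had 1 of 26 higher (3.85%) and 2 lower (7.69%). Metallothionein and zinc genes had 0 of 7 called.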
